A study of Mus musculus with 35 samples.

Results

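MicroRNAs (miRNAs) were compared between 2 white fat depots of the mouse, labelled mWAT and cWAT. The comparison used the 3 mWAT and the 3 cWAT miRNA libraries, 6 of the 35 samples of the series, chosen by their depot label and read through the normalized counts of all 485 miRNAs listed. The series holds 18 miRNA libraries, with 3 from each of 6 fat depots (iWAT, cWAT, aWAT, eWAT, mWAT and the brown depot iBAT), beside 8 mRNA and 9 Argonaute HITS-CLIP samples that were not analysed here. The mice behind both groups were male C57BL/6J animals of 13 weeks, untreated apart from any cold housing. They carried no allele or transgene that a label names. The protocol describes housing at room temperature and, for mice whose inguinal pads were taken, 1 week at 4 °C, but ties that cold housing to no depot label. No label spells out what m or c stands for, and cWAT may therefore be inguinal fat of cold-housed mice or another pad. The names are kept as the labels write them, and a difference between the groups cannot be told apart from one of housing if cWAT is the cold-housed fat. No label says that the 3 libraries of a depot came from separate animals, so the spread between them may be technical. The limma p-values of the main fit measure the spread within depots pooled over all 18 miRNA libraries, and not that of mWAT and cWAT alone. The pads were whole tissue, in which a smaller share of a cell type and less RNA per cell cannot be told apart.

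A miRNA is a short RNA cut from a hairpin precursor and loaded into an Argonaute protein, which it guides to messenger RNAs by base pairing. The pairing rests mainly on the seed, bases 2 to 8 from the 5′ end, so miRNAs with the same seed share many of their targets. Many miRNA genes lie in clusters transcribed together, and several clusters are marks of a cell lineage or of a position along the body axis. In fat tissue, some miRNAs are known to promote adipocyte differentiation, some are enriched in brown fat, and others come from the vessels, blood cells and neighbouring tissue of the pad.

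The sequences that follow are those of some miRNAs described below, from RefSeq (GRCm38.p6), with the seed in capitals. They leave out miR-143-3p, miR-145a-5p and miR-378a-3p, which are also described below. Both leading pairs are near copies with unlike values. miR-10b-5p and miR-10a-5p differ by 1 base outside the seed, A12U, and miR-196a-5p and miR-196b-5p by A12C (the first-named miRNA's base, the position counted from 1 at its 5′ end, the other miRNA's base). The next 5 lie in 1 cluster on the X chromosome whose members split between the depots, and the rest are miRNAs of the families and lists described later.
miR-10b-5p: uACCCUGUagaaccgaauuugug
miR-10a-5p: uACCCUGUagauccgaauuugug
miR-196a-5p: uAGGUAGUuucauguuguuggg
miR-196b-5p: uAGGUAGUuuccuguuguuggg
miR-542-3p: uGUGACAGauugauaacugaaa
miR-322-5p: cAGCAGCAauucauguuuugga
miR-503-5p: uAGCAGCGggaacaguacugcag
miR-351-5p: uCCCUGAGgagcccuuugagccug
miR-450a-5p: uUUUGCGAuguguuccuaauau
miR-193b-3p: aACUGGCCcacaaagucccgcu
miR-193a-3p: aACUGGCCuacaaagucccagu
miR-27b-3p: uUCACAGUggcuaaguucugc
miR-27a-3p: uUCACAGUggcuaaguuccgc
miR-142a-5p: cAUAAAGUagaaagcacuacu
miR-146a-5p: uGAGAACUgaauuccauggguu
miR-146b-5p: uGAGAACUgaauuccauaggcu
miR-92a-3p: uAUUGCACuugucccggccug
miR-20a-5p: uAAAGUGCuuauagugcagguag
miR-127-3p: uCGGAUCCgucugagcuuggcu
miR-411-5p: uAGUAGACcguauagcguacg
miR-183-5p: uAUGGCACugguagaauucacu
miR-216a-5p: uAAUCUCAgcuggcaacuguga

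The libraries of mWAT held 2817527, 1943300 and 2871504 reads assigned to miRNAs and those of cWAT 2452236, 1449708 and 6816555, a 4.70-fold range. Across miRNAs, the Pearson correlation of log2 values was 0.986 between mWAT 1 and mWAT 3, 0.958 and 0.956 between mWAT 2 and those, and 0.966 to 0.985 among the cWAT libraries. Library mWAT 2 stood apart by miRNAs of gut and other epithelium, and cWAT 1 by low levels of skeletal muscle miRNAs, both given with their values further on. Two-sided tests were made with limma on log2(normalized count + 1) for the 436 miRNAs that passed a filter on low reads, and a miRNA was called at a Benjamini-Hochberg adjusted p under 0.05. Log2 fold changes are mWAT minus cWAT with the standard error (SE) of the fit, on that scale, which understates the difference of miRNAs with low counts.

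Between mWAT and cWAT, 158 of the 436 miRNAs tested were called, which is 36.2%. Of these, 80 were higher in mWAT (18.3%) and 78 higher in cWAT (17.9%). The remaining 278 did not pass. The difference reached 2-fold (1 on the log2 scale) for 66 of the called miRNAs, 42 of them higher in mWAT and 24 higher in cWAT. In 151 of the 158, the 3 mWAT values and the 3 cWAT values did not overlap. Such a separation was found for 213 of all 436 (48.9%), 112 with mWAT on top (25.7%) and 101 with cWAT on top (23.2%). The median log2 fold change of all 436 was -0.04. The balance of the 2 directions depended on the scaling: with every library set to the same total, 195 were called, 55 higher in mWAT and 140 higher in cWAT, and the median moved to -0.30. The deposited scaling left the mWAT libraries with larger sums of normalized counts than the cWAT libraries. These sums were 2770599, 2932018 and 3100984 in mWAT, against 2482000, 2425347 and 2355501 in cWAT.

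**Figure D1:**
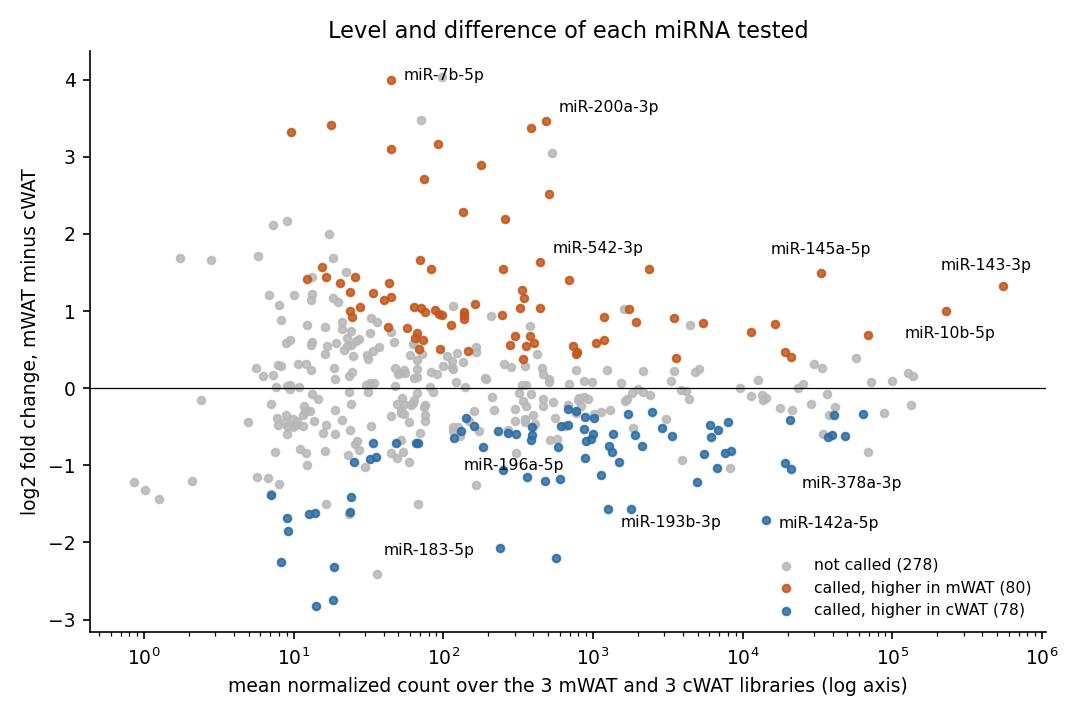
Each point is 1 of the 436 miRNAs tested, with its mean normalized count over the 6 libraries on a log axis and its log2 fold change, mWAT minus cWAT, on the vertical axis. Orange points (80) were called higher in mWAT and blue points (78) higher in cWAT. The most abundant miRNA, miR-143-3p at 1.32, and miR-10b-5p at 1.00 lie above 0 on the far right, and miR-142a-5p, miR-378a-3p and miR-193b-3p lie below -1.

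The leading difference was the abundance of miR-143-3p, which made up 24.2%, 25.3% and 30.1% of the normalized counts of the mWAT libraries and 12.6%, 11.8% and 14.2% of those of cWAT. Its normalized counts were 669281, 743128 and 933846 in mWAT against 313796, 285452 and 333440 in cWAT. Every mWAT library was at more than the highest cWAT library, and the difference was 1.32 ± 0.12 on the log2 scale (SE, limma adjusted p = 5.57e-06). miR-143 and miR-145a are cut from 1 transcript, are known as miRNAs of smooth muscle and other mesenchymal cells, and miR-143 is also known to promote adipocyte differentiation. For miR-145a-5p the values were 49683, 37214 and 60900 in mWAT and 17829, 17841 and 15665 in cWAT, a log2 difference of 1.50 ± 0.14. The lesser arms moved alike, by 1.55 ± 0.17 for miR-143-5p and 0.83 ± 0.13 for miR-145a-3p. These 4 were the 4 called of the 9 tested miRNAs of smooth muscle and mesenchyme, against 18.3% of all tested. miR-199b-3p, outside the list and identical in sequence to miR-199a-3p, was called higher in cWAT (-0.55 ± 0.14). The others of the list, which include miR-199a-5p at -0.26 ± 0.26, miR-214-3p at -0.14 and miR-152-3p at 0.00, did not pass. The median of the list was 0.14 and turned to -0.13 when every library was set to the same total.

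The 10 most abundant miRNAs of the 6 libraries together made up 64.3% of normalized counts in mWAT and 51.9% in cWAT. Only 3 of these 10 were called, all higher in mWAT: miR-143-3p, miR-10b-5p and miR-27b-3p. miR-26a-5p, which is known to act in adipocyte differentiation, was at 147539, 149373 and 140449 in mWAT and 135833, 123532 and 133900 in cWAT (0.15 ± 0.12, limma adjusted p = 0.314). The endothelial miR-126a-3p was at 122744, 144291 and 105593 in mWAT and 144799, 138524 and 145006 in cWAT (-0.21 ± 0.13). For both, the difference was small beside that of miR-143-3p, and the miR-126a-3p values of the depots overlapped. With every library set to the same total, miR-126a-3p was called higher in cWAT (-0.49, limma adjusted p = 0.00284). miR-99a-5p varied widely within each depot, from 16090 in mWAT 2 to 89721 in mWAT 3 and from 40358 to 116136 in cWAT (-0.83 ± 0.63), and miR-21a-5p, miR-30a-5p, miR-10a-5p and miR-125a-5p also overlapped.

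**Figure D2:**
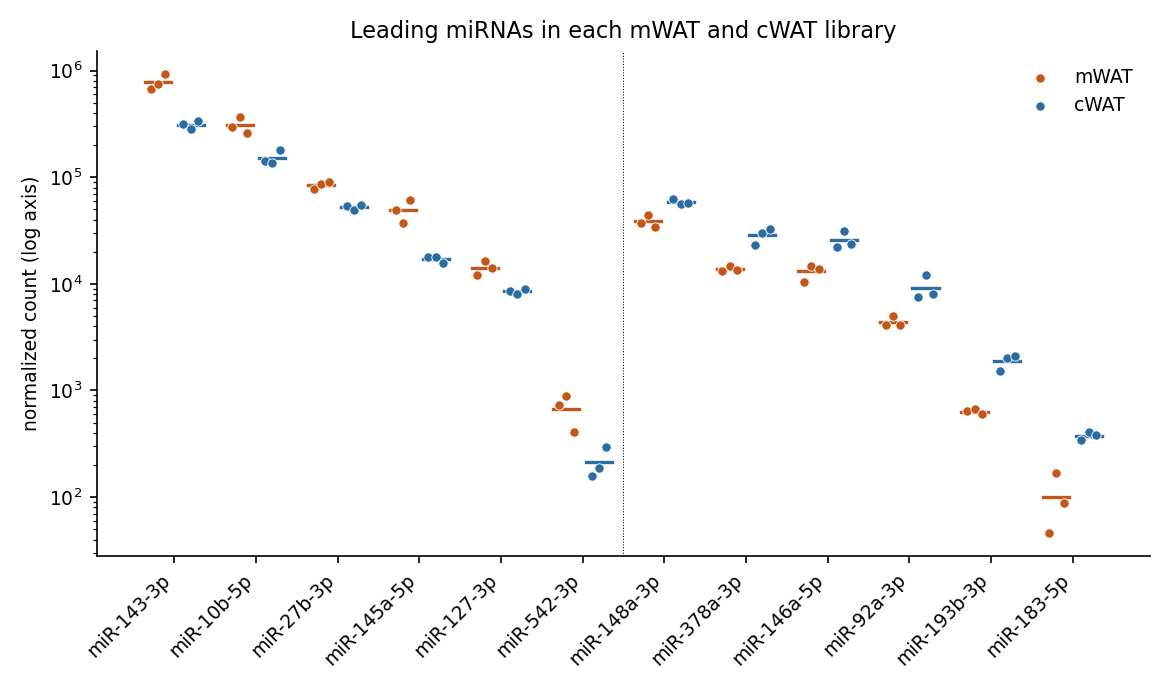
Normalized counts (log axis) of 12 called miRNAs in each mWAT (orange) and cWAT (blue) library, with bars at the mean of 3. The 6 on the left were higher in mWAT and the 6 on the right higher in cWAT, and in none of the 12 did the 3 and 3 values overlap.

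The Hox clusters, sets of genes that specify position along the body axis, hold the miR-10, miR-196 and miR-615 genes. Of 7 tested members, 3 were called higher in mWAT and 1 higher in cWAT, beside 18.3% and 17.9% of all tested. The median was 0.82. miR-10b, at chr2:74726074-74726096 within the annotated spans of Hoxd3 and Hoxd4, was higher in mWAT in both arms. Its main arm miR-10b-5p was at 294632, 363027 and 261749 in mWAT and 142057, 136212 and 179437 in cWAT. All mWAT libraries exceeded all cWAT libraries, with a difference of 1.00 ± 0.20 (limma adjusted p = 0.00144). The lesser arm miR-10b-3p stood at 375, 358 and 393 in mWAT and at 143, 102 and 144 in cWAT (1.54 ± 0.22, limma adjusted p = 0.000178). miR-10a, its near copy within the span of Hoxb3, had main-arm values that overlapped between the depots, from 113317 to 171387 in mWAT and from 105803 to 131062 in cWAT, with a difference of 0.19 ± 0.17 that did not pass. Its lesser arm miR-10a-3p was called (0.82 ± 0.19). The difference between miR-10a-5p and miR-10b-5p was not tested, and no source used here says how reads matching both copies were assigned.

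The miR-196 pair, of the same seed, lay on opposite sides. miR-196a-5p comes from 2 loci, at chr11:96265187-96265208 and chr15:102973365-102973386. Its normalized counts were 591, 668 and 584 in mWAT against 1240, 1186 and 1029 in cWAT. All 3 cWAT values lay above all 3 mWAT values (-0.90 ± 0.20, limma adjusted p = 0.00343). miR-196b-5p, at chr6:52230129-52230150, stood at 2211, 1983 and 2274 in mWAT and 1217, 1031 and 939 in cWAT. Here all 3 mWAT values were the higher ones, but the difference of 1.03 ± 0.41 missed the threshold in the fit over 6 depots (limma adjusted p = 0.0591). It passed in the fit of the mWAT and cWAT libraries alone (limma adjusted p = 0.00468), and in edgeR and DESeq2 on the recovered reads, and over all alternatives its adjusted p was under 0.05 in 4 of them. In eWAT, aWAT and iBAT both were far lower, and in iWAT they were not. miR-196a-5p averaged 25.8 ± 6.2 (SD, n = 3) in eWAT and 6.6 ± 2.3 in aWAT, was at 0 in all 3 iBAT libraries, and averaged 1160 ± 72.3 in iWAT. miR-196b-5p averaged 83.2 ± 26.4 in eWAT, 101 ± 65.4 in aWAT, 4.2 ± 2.8 in iBAT and 1345 ± 164 in iWAT. The order of the depots for miR-196a-5p thus ran from iWAT and cWAT, whose values overlapped, down to mWAT, eWAT, aWAT and iBAT. miR-615-3p, of the Hoxc cluster, did not pass (-0.34 ± 0.22), though all its cWAT values lay above its mWAT values. It was called higher in cWAT in the fit of the mWAT and cWAT libraries alone (limma adjusted p = 0.0363). With every library set to the same total it was also called (-0.61, limma adjusted p = 0.0103).

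**Figure D3:**
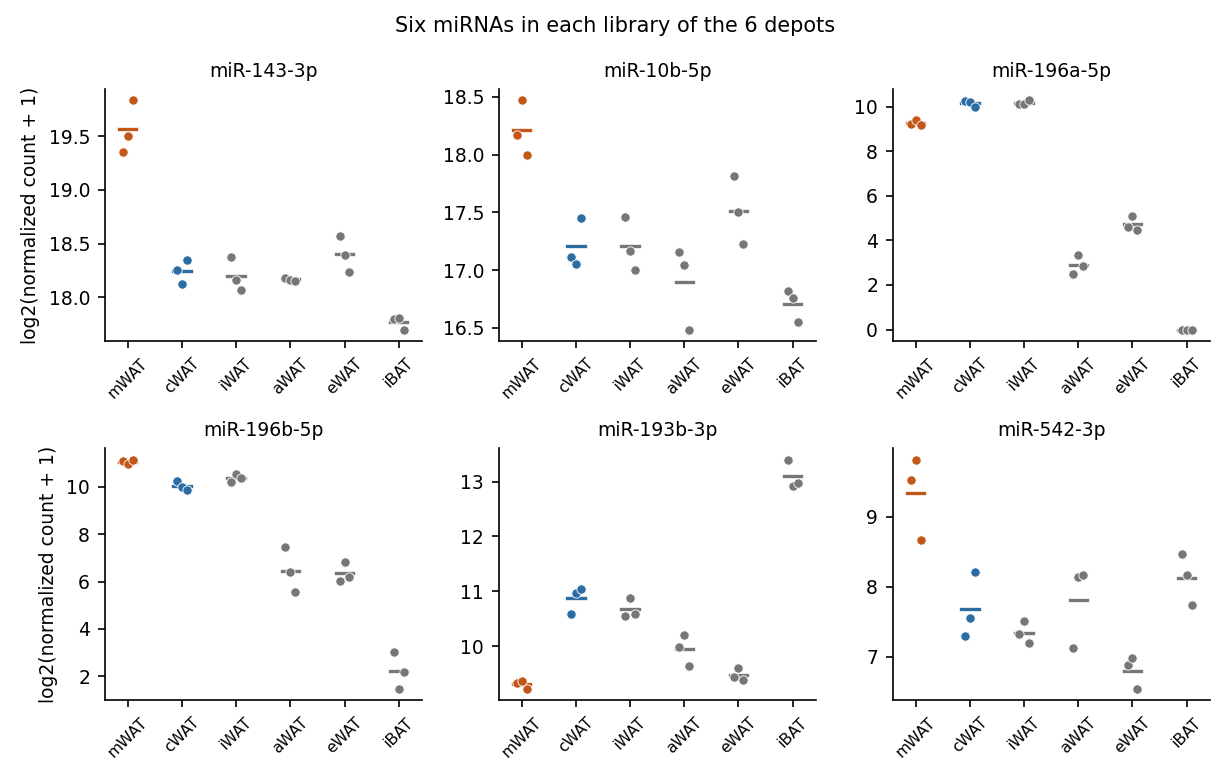
Levels of 6 miRNAs as log2(normalized count + 1) in each library of the 6 depots, with bars at the mean of the 3 log2 values and a separate vertical scale in each panel. miR-143-3p, miR-10b-5p and miR-542-3p were higher in all 3 mWAT libraries than in any other library, miR-196a-5p and miR-196b-5p were high in mWAT, cWAT and iWAT, and miR-193b-3p was lowest in mWAT and highest in iBAT.

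On the X chromosome, a cluster at chrX:53048044-53054327 on the minus strand (members under 10000 bases apart) holds miR-322, miR-503, miR-351, miR-542 and miR-450. miR-322 and miR-503, which are known to restrain the cell cycle, belong to the wider miR-15 and miR-16 family of related seeds. Of 9 tested mature miRNAs of the cluster, 7 were called higher in cWAT, 1 was called higher in mWAT and 1, miR-351-3p, was not called. Among all tested, 17.9% were called higher in cWAT and 18.3% higher in mWAT. miR-322-5p stood at 1076, 1064 and 737 in mWAT and 1512, 1556 and 1724 in cWAT (-0.76 ± 0.19). miR-351-5p read 1624, 1524 and 1621 in mWAT and 2899, 2521 and 2585 in cWAT (-0.75 ± 0.16). The other 5 (miR-322-3p, miR-450a-5p, miR-450b-5p, miR-503-5p and miR-503-3p) ranged from -0.96 to -0.59. The miR-503-5p call was lost without mWAT 2, cWAT 1 or cWAT 3 (limma adjusted p = 0.0895, 0.0665 and 0.101). miR-542-3p went the other way, with 731, 896 and 404 in mWAT against 157, 187 and 295 in cWAT. Its lowest mWAT value was above its highest cWAT value, and the difference was 1.64 ± 0.33 (limma adjusted p = 0.0017). These cluster members other than miR-542-3p were singled out after their values had been seen.

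The miR-23b, miR-27b and miR-24-1 cluster lies at chr13:63300492-63301272 within the span of Aopep. It was higher in mWAT in 4 of 5 positioned and tested members, beside 18.3% of all tested. miR-27b-3p, known to repress adipocyte differentiation and browning, stood at 76915, 86609 and 89567 in mWAT and at 53782, 48910 and 54777 in cWAT. The groups did not overlap, and the difference was 0.68 ± 0.11 (limma adjusted p = 0.00046). miR-23b-3p, for which the sequence table gave no position, moved the same way, with 6765, 6553 and 7505 in mWAT and 3819, 3883 and 3924 in cWAT (0.84 ± 0.10, limma adjusted p = 1.98e-05). Of the paralogous cluster at chr8:84208563-84208896, miR-27a-3p differed by 0.40 ± 0.10 and was called, and miR-23a-3p, with values that overlapped, was not (0.11 ± 0.10). The call of miR-27a-3p was lost when every library was set to the same total (0.13, limma adjusted p = 0.32). miR-24-3p (0.47 ± 0.10) is made from both clusters.

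In the imprinted Dlk1-Dio3 region of chromosome 12, whose miRNAs are expressed from the maternal copy and are known from development, all calls fell on 1 side. Of 33 tested members of the list, 18 were called higher in mWAT and 0 higher in cWAT, beside 18.3% and 17.9% of all tested. The median was 0.85, beside -0.04 for all miRNAs. In 27 of the 33, all mWAT values lay above all cWAT values, beside 25.7% of all tested. The members split by position into a group at chr12:109585818-109595387 within the span of Rtl1, where 6 of 13 tested were called, and one at chr12:109709065-109743784, where 18 of 33 were called. These 2 groups include members outside the list. The most abundant member, miR-127-3p, stood at 12086, 16263 and 14216 in mWAT and 8578, 7962 and 8892 in cWAT (0.73 ± 0.14, limma adjusted p = 0.00142). The values of miR-136-3p were 2214, 2449 and 2378 in mWAT and 1197, 1064 and 1195 in cWAT (1.03 ± 0.15). In both, the lowest mWAT library exceeded the highest cWAT library. The differences of miR-541-5p (0.85 ± 0.15), miR-434-5p (0.93 ± 0.13), miR-411-5p (1.16 ± 0.13) and miR-381-3p (1.04 ± 0.13) were of similar size. Between 14 and 21 members were called in the alternatives tried, the lowest with every library set to the same total, where the median was 0.55, and none was called higher in cWAT in any of them. The summed level of the list was 23147, 28314 and 27160 in mWAT and 15944, 14123 and 15671 in cWAT.

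Among miRNAs known from brown and beige fat, 8 of 16 tested were called higher in cWAT, 1 higher in mWAT and 7 neither, with a median of -0.48, beside 17.9% of all tested called higher in cWAT. miR-193b-3p, a miRNA enriched in brown fat, stood at 641, 664 and 598 in mWAT and at 1538, 2016 and 2118 in cWAT. Every cWAT library lay well above every mWAT library, and the difference was -1.56 ± 0.17 (limma adjusted p = 1.57e-05). miR-193b shares a locus on chromosome 16 with a miR-365 gene, and miR-365-3p was lower in mWAT by -0.64 ± 0.20, with overlapping values. miR-193a-3p, of the same seed as miR-193b-3p, did not pass (-0.35, limma adjusted p = 0.202). miR-378a-3p, whose gene lies in Ppargc1b and which acts in energy metabolism, stood at 13159, 14551 and 13442 in mWAT and 23274, 30146 and 32407 in cWAT (-1.05 ± 0.19). Its relatives miR-378c (-1.18 ± 0.26) and miR-378d (-1.15 ± 0.25) were also called, and reads of these close copies may be shared in counting. miR-30e-5p (-0.63 ± 0.12), miR-203-3p (-0.52 ± 0.12), miR-182-5p, miR-129-5p and miR-92a-3p were the other called members. miR-455-3p, known to promote brown adipocyte differentiation, was the member higher in mWAT, with 453, 409 and 543 against 313, 182 and 124 in cWAT (1.27 ± 0.38, limma adjusted p = 0.018). That call was lost when any of mWAT 3, cWAT 2 or cWAT 3 was left out (limma adjusted p = 0.058, 0.0543 and 0.0844).

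The levels in brown fat give a scale for these differences. miR-193b-3p averaged 634 ± 33.3 (SD, n = 3) normalized counts in mWAT, 1891 ± 309 in cWAT, 1645 ± 212 in iWAT and 8846 ± 1695 in iBAT. For miR-378a-3p the means were 13717 ± 736 in mWAT, 28609 ± 4756 in cWAT, 20131 ± 2923 in iWAT and 225948 ± 22687 in iBAT. For both, cWAT had the highest mean of the 5 white depots, with values that overlapped those of another white depot (iWAT for miR-193b-3p, aWAT for miR-378a-3p), and lay far below iBAT. Of 9 tested miRNAs known to oppose browning, 4 were higher in mWAT and 2 higher in cWAT, beside 18.3% and 17.9% of all tested, with a median of 0.39. The former were miR-27a-3p, miR-27b-3p, miR-34a-5p and miR-125b-1-3p. miR-34a-5p stood at 517, 682 and 595 in mWAT against 237, 320 and 319 in cWAT (1.04 ± 0.20). The latter were miR-155-5p and miR-106b-5p, and neither was called without mWAT 3 or without cWAT 2.

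Of 16 tested miRNAs known from adipocyte differentiation, 2 were higher in mWAT (miR-143-3p and miR-130a-3p) and 4 higher in cWAT (miR-148a-3p, miR-103-3p, miR-107-3p and miR-211-5p), beside 18.3% and 17.9% of all tested. miR-148a-3p, which promotes adipocyte differentiation, stood at 37216, 44236 and 33918 in mWAT and 63040, 55567 and 57569 in cWAT, without overlap (-0.62 ± 0.10, limma adjusted p = 0.00046). miR-103-3p and miR-107-3p, known to act on insulin sensitivity, differed by -0.47 ± 0.14 and -0.67 ± 0.15. Without mWAT 2, only 2 members of the list were called higher in cWAT, and miR-103-3p was not among them (limma adjusted p = 0.0648). The miR-103-3p call was also lost without mWAT 1 or cWAT 1 (limma adjusted p = 0.0577 and 0.0813).

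The miR-17-92 cluster and its paralogs, known from dividing cells, lay on the cWAT side. Of 13 tested, 6 were called higher in cWAT and 0 higher in mWAT, beside 17.9% and 18.3% of all tested, with a median of -0.62. In 9 of 13 all cWAT values exceeded all mWAT values, beside 23.2% of all tested. miR-92a-3p stood at 4113, 4944 and 4112 in mWAT and 7448, 12102 and 7962 in cWAT (-1.03 ± 0.16, limma adjusted p = 0.000303). It is made from loci on chromosomes 14 and X. miR-20a-5p (-0.77 ± 0.13) belongs to the chromosome 14 cluster. In the paralogous cluster within the span of Mcm7, at chr5:138165332-138165807, miR-25-3p differed by -0.62 ± 0.10 and miR-106b-5p by -0.51 ± 0.16. In the third, at chrX:52741697-52742563, miR-20b-5p and miR-106a-5p were called from few reads. miR-20b-5p had 7, 0 and 2 reads in the mWAT libraries and 8, 29 and 54 in those of cWAT.

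Of 9 tested members of the let-7 family, known to restrain growth, 3 were higher in cWAT, beside 17.9% of all tested. They were let-7a-5p, let-7c-5p and let-7g-5p. let-7g-5p stood at 29390, 30047 and 34683 in mWAT and 49700, 52826 and 41211 in cWAT (-0.61 ± 0.12, limma adjusted p = 0.00129). The highest mWAT library was below the lowest cWAT library, and the list had a median of -0.24. The calls numbered 2 without mWAT 1, cWAT 1 or cWAT 2 and in the fit of the 6 libraries alone, where let-7c-5p did not pass. They numbered 5 without cWAT 3 and 7 with every library set to the same total. In the miR-30 family 2 of 7 were higher in cWAT, beside the same 17.9%: miR-30d-5p (-0.34 ± 0.09) and miR-30e-5p. miR-30e-5p differs from miR-30a-5p by 1 substitution, U13C, outside the seed, and miR-30a-5p did not pass (0.09 ± 0.14). In the miR-29 family, which targets collagens and other matrix genes, 0 of 5 were called. Its most abundant member miR-29a-3p stood at 42227, 33955 and 34768 in mWAT and 29392, 34293 and 29100 in cWAT, with overlap (0.26 ± 0.13). At an unadjusted p under 0.05 the limma count was also 0, and edgeR and DESeq2 called none of the 5.

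**Figure D4:**
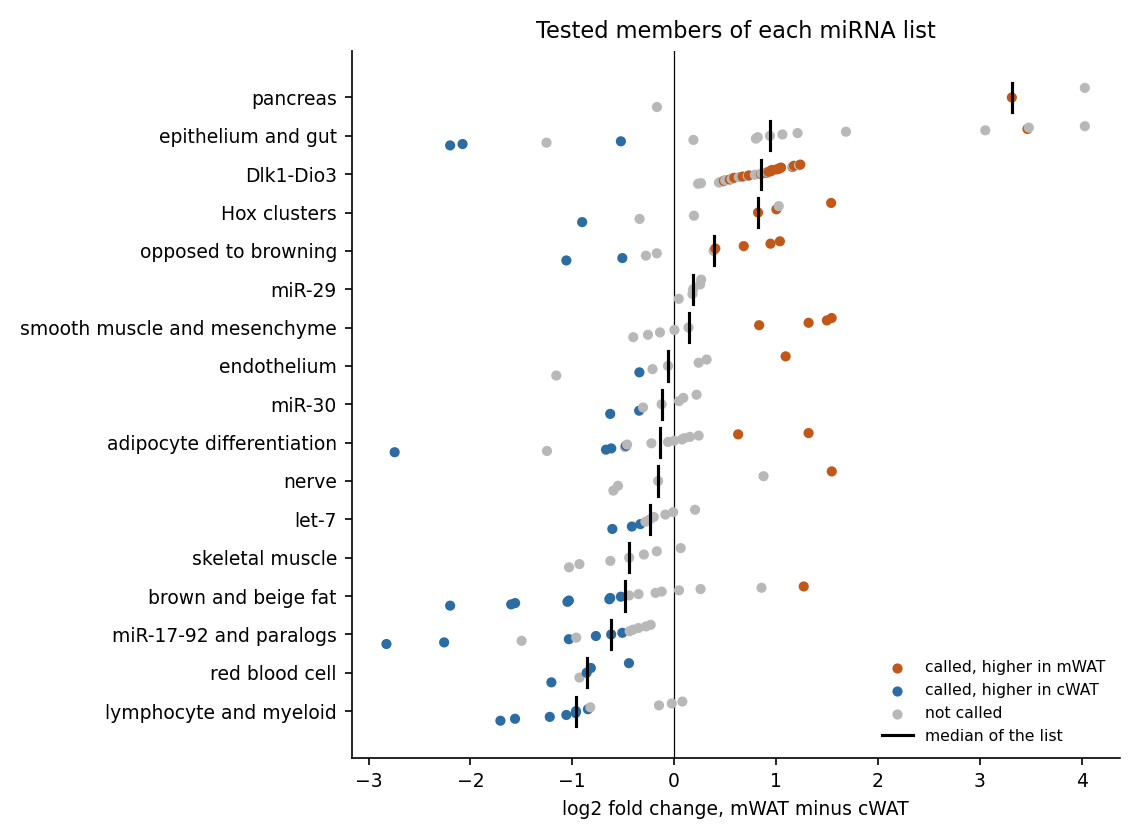
Log2 fold change, mWAT minus cWAT, of each tested member of the 17 miRNA lists with at least 3 tested members, ordered by their median (black bar). Orange members were called higher in mWAT, blue ones higher in cWAT and grey ones neither. All coloured points of the Dlk1-Dio3 list are orange, and those of the lymphocyte, red blood cell, miR-17-92 and let-7 lists are blue.

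Of 11 tested miRNAs of lymphocytes and myeloid cells, 7 were called higher in cWAT, beside 17.9% of all tested, and 0 higher in mWAT, with a median of -0.96. miR-142a, a miRNA of blood-forming lineages, had main-arm (5p) values of 5549, 6946 and 5623 in mWAT and 9894, 37214 and 20438 in cWAT. Every cWAT value was above every mWAT value, and the cWAT libraries spread more widely (-1.71 ± 0.35, limma adjusted p = 0.00184). miR-146a-5p, induced by inflammatory signals, stood at 10502, 14845 and 13833 in mWAT and 21944, 31014 and 23694 in cWAT (-0.97 ± 0.15, limma adjusted p = 0.000303). miR-146b-5p, which shares its seed and differs from it by G18A and U21C, was also called (-0.85 ± 0.20). miR-150-5p, a miRNA of mature lymphocytes, overlapped, with 3033, 2969 and 1839 in mWAT and 2500, 12728 and 6595 in cWAT. miR-342-3p (-0.96 ± 0.24), miR-155-5p (-1.06 ± 0.33) and miR-142a-3p (-1.56 ± 0.44) were the other calls. miR-223-3p of myeloid cells did not pass (-0.15 ± 0.16). The summed level of the list was 30119, 39002 and 33813 in mWAT and 50191, 106697 and 69996 in cWAT. Without cWAT 2, the library with the highest sum, 4 of 11 were called, and miR-142a-3p, miR-150-5p and miR-155-5p were not (limma adjusted p = 0.0643, 0.187 and 0.104). In the fit of the mWAT and cWAT libraries alone, 4 of 11 were called. There miR-142a-3p, miR-150-5p, miR-155-5p and miR-342-3p did not pass (limma adjusted p = 0.0561, 0.137, 0.0878 and 0.0598).

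Red blood cell miRNAs were likewise higher in cWAT in 4 of 5 tested, beside 17.9% of all tested, with a median of -0.86. miR-451a, the leading miRNA of red blood cells, stood at 6759, 6839 and 4701 in mWAT and 10186, 9141 and 12788 in cWAT, with no overlap (-0.82 ± 0.22, limma adjusted p = 0.0104). It shares a transcript at chr11:78073010-78073207 with miR-144, whose arms differed by -0.86 ± 0.23 (3p) and -1.21 ± 0.23 (5p). Without mWAT 3, the library with the lowest miR-451a, 1 of the 5 was called, and miR-451a had an adjusted p of 0.0539 (limma). The part of blood cells in the other differences was not tested.

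**Figure D5:**
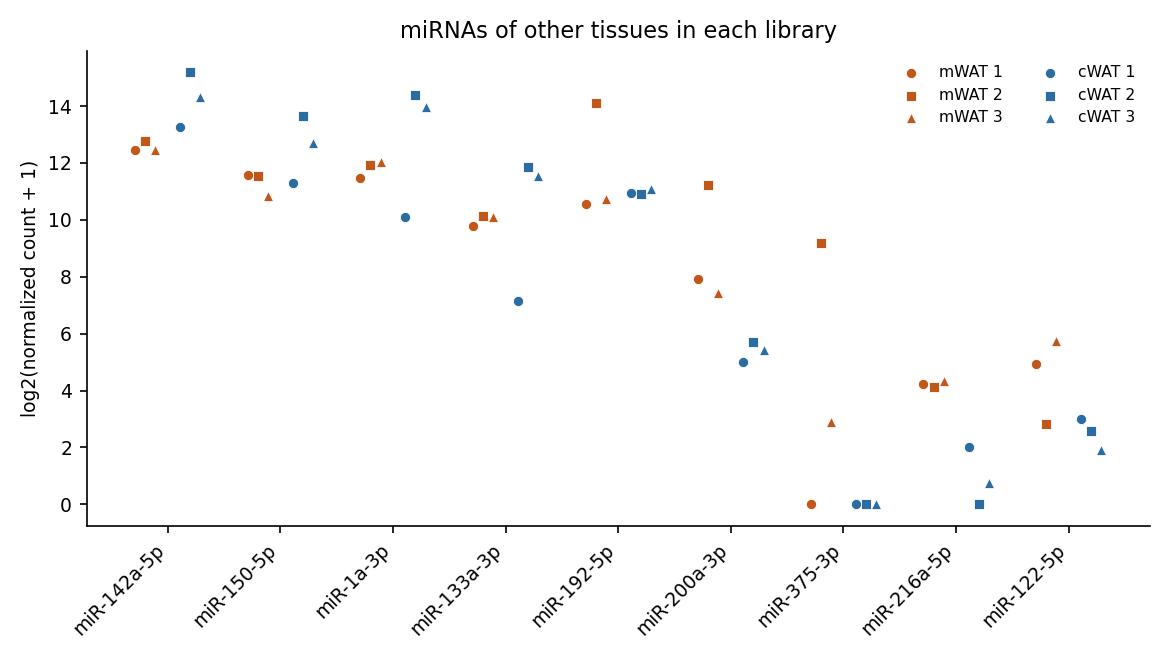
miRNAs of white blood cells (miR-142a-5p, miR-150-5p), skeletal muscle (miR-1a-3p, miR-133a-3p), gut and other epithelium (miR-192-5p, miR-200a-3p, miR-375-3p), pancreas (miR-216a-5p) and liver (miR-122-5p) as log2(normalized count + 1) in each mWAT (orange) and cWAT (blue) library, with a marker shape per library. Library mWAT 2 (orange squares) stood highest for miR-192-5p, miR-200a-3p and miR-375-3p, and cWAT 1 (blue circles) lowest for both muscle miRNAs.

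The miRNAs of gut and other epithelium separated the libraries of mWAT from one another. miR-192-5p, a miRNA of gut and kidney, stood at 1509, 17665 and 1683 in mWAT and 1960, 1932 and 2147 in cWAT. miR-200a-3p, of epithelial cells, stood at 243, 2393 and 171 in mWAT and 31.4, 51.9 and 42.2 in cWAT. For both, mWAT 2 was far above the other 5 libraries. For miR-200a-3p the remaining mWAT values also exceeded those of cWAT (3.47 ± 1.31, limma adjusted p = 0.0497). That call was lost in 8 of 16 alternatives, among them leaving out mWAT 2 (limma adjusted p = 0.202). Against the mean of eWAT, iWAT and aWAT, miR-200a-3p was lower in cWAT (-4.15 ± 1.07, limma adjusted p = 0.0266), and in mWAT it did not pass (-0.68 ± 1.07). Its mean was 2339 ± 1157 (SD, n = 3) in eWAT and 2451 ± 2286 in aWAT. miR-192-5p did not pass in limma and turned to -0.34 without mWAT 2, and edgeR called it higher in mWAT (1.86, adjusted p = 0.0373). miR-375-3p, of endocrine cells of pancreas and gut, had 387 reads in mWAT 2, 6 in mWAT 3, and 0 in mWAT 1 and in the 3 cWAT libraries, where a count of 0 allows up to 3 reads, or 1.04 to 5.02 normalized counts. Its normalized counts in mWAT were 0, 584 and 6.48.

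Of the 15 tested miRNAs of epithelium and gut, 1 was called higher in mWAT (miR-200a-3p) and 3 higher in cWAT (miR-182-5p, miR-183-5p and miR-203-3p). Of all tested, 18.3% and 17.9% were called on these sides. The median of the list was 0.94, and miR-182-5p and miR-203-3p are also counted among the brown and beige fat miRNAs. Without mWAT 2 the calls were 0 and 5 and the median was -0.34. On the recovered reads edgeR called 7 higher in mWAT and 2 higher in cWAT (median 2.02), and DESeq2 5 and 3 (median 1.93). Their summed level was 4478, 31104 and 4929 in mWAT and 7320, 6832 and 7462 in cWAT. miR-183-5p stood at 46.2, 167 and 88.6 in mWAT and 342, 405 and 384 in cWAT (-2.08 ± 0.58, limma adjusted p = 0.0113), the largest difference on the cWAT side among miRNAs named by size. miR-182-5p, from the same cluster at chr6:30165962-30169732, overlapped through mWAT 2, with 88.5, 558 and 121 in mWAT and 555, 954 and 1114 in cWAT (-2.20 ± 0.68). Both were more abundant in iBAT, at 2196 ± 865 and 12729 ± 2143 (SD, n = 3), than in either depot. Their calls were lost without mWAT 1 (limma adjusted p = 0.0594 and 0.1), and that of miR-182-5p also in edgeR (adjusted p = 0.0622) and without mWAT 3, cWAT 2 or cWAT 3.

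miR-216a-5p, of pancreatic acinar cells, was low but present in each mWAT library, with 18, 11 and 18 reads, against 3, 0 and 2 reads in the cWAT libraries. The normalized counts did not overlap, at 17.7, 16.6 and 19.4 in mWAT and 3.04, 0 and 0.691 in cWAT (limma adjusted p = 0.00482). In eWAT it averaged 9.5 ± 1.2 (SD, n = 3). The remaining tested members of the pancreas list, miR-375-3p and miR-7a-5p, did not pass. miR-375-3p was called by edgeR (adjusted p = 0.0171), by DESeq2 (adjusted p = 0.00384) and by limma without mWAT 1 (adjusted p = 0.00676). The one liver miRNA tested, miR-122-5p, stood at 29.5, 6.04 and 52.9 in mWAT and 7.08, 5.02 and 2.76 in cWAT and did not pass in limma (adjusted p = 0.153), though edgeR and DESeq2 called it (adjusted p = 0.0364 and 0.0379). The part of neighbouring tissue in the mWAT libraries was not tested.

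Of the 7 tested miRNAs of skeletal muscle, 0 were called by limma, edgeR or DESeq2. At an unadjusted p under 0.05 limma counted 1, miR-486a-5p, a miRNA also abundant in red blood cells, which passed in the limma fit of the 6 libraries alone (adjusted p = 0.0477). miR-1a-3p stood at 2809, 3859 and 4149 in mWAT and 1107, 21657 and 16033 in cWAT. The cWAT libraries lay on both sides of those of mWAT. miR-133a-3p had the same order, with 887, 1126 and 1084 in mWAT and 141, 3687 and 2960 in cWAT. The summed level of the list was 6257, 8819 and 7311 in mWAT and 6199, 29532 and 26159 in cWAT.

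Nerve and endothelial miRNAs gave 1 call each on the mWAT side, of 5 and 7 tested. Of all miRNAs tested, 18.3% were called higher in mWAT and 17.9% higher in cWAT. miR-9-5p, a miRNA of neural cells, stood at 117, 130 and 123 in mWAT and 46.6, 43.5 and 35.2 in cWAT, without overlap (1.55 ± 0.23, limma adjusted p = 0.000246). The other 4 tested miRNAs of nerve did not pass, with differences from -0.60 for miR-138-5p to 0.88 for miR-212-3p. Of 7 tested endothelial miRNAs, miR-218-5p was higher in mWAT (231, 205 and 226 against 118, 87 and 105, 1.09 ± 0.18) and miR-139-5p higher in cWAT (-0.34 ± 0.11). The miR-139-5p call was lost in 4 of the 6 fits that left out a library.

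Several of the largest differences belonged to miRNAs of low or middling level. miR-7b-5p, below the level needed for naming by size, stood at 53.1, 67.9 and 132 in mWAT and 3.04, 11.7 and 1.38 in cWAT (3.99 ± 0.76, limma adjusted p = 0.00129). It shares its seed with miR-7a-5p, which did not pass (-0.17 ± 0.20). miR-1247-5p, at chr12:110278094-110278115 beyond the Dlk1-Dio3 groups, stood at 205, 250 and 204 in mWAT and 21.3, 55.2 and 71.9 in cWAT (2.29 ± 0.38, limma adjusted p = 0.00046). In both the lowest mWAT value was well above the highest cWAT value. miR-6538 (3.37 ± 0.78), miR-6238 (2.90 ± 1.01), miR-6937-5p (2.52 ± 0.70) and miR-5126 (2.19 ± 0.57) were among the 10 largest on the mWAT side of called miRNAs with a mean of at least 100 and no overlap. In these 4, cWAT 1 was the lowest library, at 16.2 for miR-6538 against 73.6 and 169 in cWAT 2 and cWAT 3. Library 1 was also the lowest of iWAT and of aWAT for all 4, and of eWAT for miR-6538 and miR-6238. In mWAT and iBAT it was the lowest for none of them. The call of miR-6238 was lost in 5 of the 6 fits that left out a library. miR-501-3p, within the span of Clcn5 on the X chromosome, was among the 10 largest on the cWAT side of called miRNAs with a mean of at least 100 and no overlap, with 647, 459 and 1118 in mWAT and 1590, 1767 and 1247 in cWAT (-1.13 ± 0.28). Its near copy miR-500-3p, of the same seed, did not pass (-0.42 ± 0.20).

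Where both arms of a hairpin were tested, they never opposed each other among called pairs. Of 126 such hairpins, 22 had both arms called and in all 22 the arms lay on the same side, 47 had 1 arm called and 57 neither. The median gap between the arms was 0.32 on the log2 scale. Seeds were less uniform. Among the called miRNAs, 142 of 158 had a RefSeq mature sequence. Of 43 seeds shared by at least 2 tested miRNAs, 28 held a call and 14 held at least 2. In 11 of the 14 the calls lay on 1 side, among them the seed of miR-17-5p and miR-20a-5p (4 of 6 higher in cWAT), that of let-7 (3 of 9) and that of miR-146. In 3 the calls split. The seed of miR-322-5p and miR-16-5p held miR-15b-5p (-0.83 ± 0.16), miR-16-5p (-0.44 ± 0.15) and miR-322-5p on the cWAT side and miR-497a-5p (0.47 ± 0.15) on the mWAT side. The miR-497a-5p call was lost with every library set to the same total (limma adjusted p = 0.412) and in 4 of the 6 fits that left out a library. That of miR-16-5p was lost without mWAT 3, cWAT 2 or cWAT 3 (limma adjusted p = 0.088, 0.102 and 0.0814).

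Each depot was also set against the mean of eWAT, iWAT and aWAT in the same fit. These comparisons share that reference and the libraries of the main one. The reference holds iWAT, and cWAT may be the same pad. It may therefore lie nearer to cWAT than to mWAT, and the counts of the 2 depots are not on an equal footing. Against it, mWAT differed in 140 of 436 miRNAs (32.1%), 74 higher (17%) and 66 lower (15.1%). cWAT differed from it in 37 (8.49%), 23 higher (5.28%) and 14 lower (3.21%). The cWAT count fell to 9 without cWAT 2 and 13 without cWAT 3, and was 68 in DESeq2. For miR-143-3p the difference from the reference was 1.31 ± 0.10 in mWAT and -0.01 ± 0.10 in cWAT. For miR-10b-5p it was 1.00 ± 0.16 in mWAT and 0.00 ± 0.16 in cWAT, for miR-127-3p 0.73 ± 0.12 and -0.01 ± 0.12, for miR-27b-3p 0.69 ± 0.09 and 0.00 ± 0.09, and for miR-542-3p 2.01 ± 0.27 and 0.37 ± 0.27. In these 5, the mWAT difference was called and that of cWAT was not. miR-193b-3p lay on both sides, at -0.72 ± 0.13 in mWAT and 0.84 ± 0.13 in cWAT, both called. miR-378a-3p (-0.53 ± 0.15 and 0.52 ± 0.15) and miR-92a-3p (-0.46 ± 0.13 and 0.57 ± 0.13) did the same. miR-142a-5p differed from the reference in cWAT (1.08 ± 0.28, limma adjusted p = 0.0288), and in mWAT its -0.63 ± 0.28 did not pass (limma adjusted p = 0.104). miR-196a-5p was above the reference in both, by 3.33 ± 0.16 in mWAT and 4.24 ± 0.16 in cWAT.

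Because cWAT may be inguinal fat, it was also set against iWAT. limma called 0 of 436 miRNAs (0%), with 54 at an unadjusted p under 0.05 and a lowest adjusted p of 0.0546. On the recovered reads edgeR called 1 and DESeq2 12. In the authors' deposited table of cWAT against iWAT, 13 of 239 miRNAs with an adjusted p were under 0.05, 8 of them higher in cWAT and 5 lower. For the miRNAs that led the comparison with mWAT, the cWAT minus iWAT difference was 0.04 for miR-143-3p, -0.01 for miR-196a-5p, 0.19 for miR-193b-3p, 0.50 for miR-378a-3p and 0.50 for miR-142a-5p, none of them called. A difference that missed the threshold does not show that these depots were alike.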

How the data were processed

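The libraries were made with a TruSeq small RNA kit from RNA purified on RNeasy columns after TRIzol, per the labels' protocols. For the miRNA samples, kallisto 0.45.0, DESeq2, DESeq, mm10 and GRCm38 stand in the submitters' processing notes, with no role stated. No source used here gives the miRNA aligner or counter. The values used are normalized counts, a signal scaled by a size factor per library by the authors, per the file headers and values. Beside them stand log2 fold changes, p-values and a test statistic or score that the authors deposited for 6 comparisons. Of these only cWAT against iWAT was used.

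Whole reads were recovered from the steps of the values (100% whole within 0.02 reads). The smallest value was 1 read in 6 libraries and 2 in 12, and only 6 values were of 1 read beside 258 of 2, so a 0 may stand for 1 read. Tests were two-sided and used limma 3.58.1 (R 4.3.3) on log2(normalized count + 1), with eBayes and its trend option and all 18 libraries in 1 fit (12 residual degrees of freedom). Adjustment was by Benjamini-Hochberg over the 436 of 485 miRNAs that edgeR's filterByExpr kept. The script was tested on simulated data. No pairing of the mWAT and cWAT libraries by replicate number was found, which does not exclude shared animals. Alternatives were edgeR 4.0.16 and DESeq2 1.42.0 on recovered reads, other pseudocounts, filters and scalings, and leaving out libraries. Those for the 3 side comparisons and some list counts were chosen after seeing the data. mRNA and HITS-CLIP files were not used here.

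The comparison, the 18 miRNA lists and the naming rule were chosen with earlier results of these data known. From called miRNAs without overlap and with a mean of at least 100 over the 6 libraries, the rule took the 10 largest differences in each direction. It added the 10 most abundant miRNAs, every tested Hox-cluster miRNA and the 4 most abundant of each other list. Others were named after their values were seen. Sequences and positions came from RefSeq (GRCm38.p6), with 424 of 485 names matched, and the strand of host genes was not used. Means ± SD are over normalized counts. Floors cover counting error only.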

Additional observations from a re-analysis of the deposited data

How the results depend on the processing

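In mWAT against cWAT, 71 of 158 calls passed in all 16 alternatives, 35 higher in mWAT and 36 in cWAT. The count ranged from 119 to 144 in fits that left out a library, lowest without cWAT 2, and was 171 in edgeR, 180 in DESeq2 and 161 with a replicate block. No pairing by replicate number was found: same-numbered libraries of the depots correlated at 0.01, 0.10 and -0.20 in their deviations, and 2 of 6 libraries correlated best with their own number. With so few libraries of each depot, these values cannot exclude shared animals or batches. Setting every library to the same total moved the median of all miRNAs from -0.04 to -0.30, so that 28.2% of calls were higher in mWAT against 50.6%, and small differences turned: miR-10a-5p to -0.082, miR-125a-5p to -0.20, miR-26a-5p to -0.12, miR-29a-3p to -0.021, miR-29b-3p to -0.089, miR-29c-3p to -0.010, miR-30a-5p to -0.19 and miR-30c-5p to -0.23, none of them called in either. At the same total, 9 named miRNAs gained a call and 4 lost it. In fits that left out a library miR-192-5p ranged from -0.34 without mWAT 2 to 1.44 without mWAT 1, and edgeR gave 1.86 with a call. For the 101 named miRNAs, 63 of 1607 values lost the call, 28 gained it and 9, not called, changed sign by more than a margin scaled to the SE. The other 1507 kept their side of the threshold. They include values not called that changed sign within that margin. cWAT against iWAT gave 1 call in edgeR, 12 in DESeq2 and 0 to 4 when a library was left out. mWAT against the mean of 3 depots gave 98 to 164 calls without a library, and cWAT against that mean 9 to 52 and, in DESeq2, 68; the cause was not tested. The depth of cWAT 2 (1449708 reads) limits miRNAs of a few reads.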

Other observations

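Some called miRNAs outside the lists were chosen here after their values were seen, and are given as values only. miR-140-3p, whose gene is known from cartilage and other mesenchymal tissue, stood at 4568, 4271 and 4795 in mWAT and 2164, 2596 and 2505 in cWAT. The groups did not overlap, and the difference was 0.91 ± 0.10 on the log2 scale. The neighbours miR-181c-5p (0.59 ± 0.14) and miR-181d-5p (0.56 ± 0.18) were higher in mWAT, and miR-181a-5p, of the same seed and more abundant, did not pass (-0.02 ± 0.11). miR-298-5p stood at 33.4, 36.2 and 28.1 in mWAT and 5.06, 0 and 4.15 in cWAT (limma adjusted p = 0.00129). Its neighbour on chromosome 2, miR-296-5p, also had all mWAT values above those of cWAT but did not pass (1.44 ± 0.66). miR-130a-3p and miR-301a-3p, of 1 seed, were both higher in mWAT, by 0.63 ± 0.15 and 1.15 ± 0.31.

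On the cWAT side, both arms of miR-423 were called, miR-423-3p with 734, 825 and 685 in mWAT and 1111, 1328 and 1108 in cWAT (-0.66 ± 0.10) and miR-423-5p by -0.53 ± 0.15. miR-340-5p differed by -0.59 ± 0.14. miR-148b-3p, of the seed of miR-148a-3p, was also higher in cWAT (-0.31 ± 0.10), and miR-152-3p, the third of that seed, lay at 0.00 and did not pass.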
